A study of Mus musculus with 16 samples.

Results

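The mouse Cyp2c cytochromes P450 are described here through 10 genes, Cyp2c29, Cyp2c37, Cyp2c38, Cyp2c39, Cyp2c40, Cyp2c50, Cyp2c54, Cyp2c67, Cyp2c69 and Cyp2c70, taken by name from the deposited count table of 15119 genes. All 10 were present and all 10 passed the filter on low counts, together with 14434 genes in all that were tested. They were measured by RNA-seq of poly(A) RNA in livers of female mice in 4 groups of 4 libraries. Mice that lacked Arglu1 in hepatocytes (LKO) and wild-type mice (WT) were first aged on chow to 9 months. For 12 further weeks they then either stayed on chow or ate a high-fat diet (HFD, TD. 88137), which gave the groups LKO chow, WT chow, LKO HFD and WT HFD. ARGLU1 is a nuclear protein that acts in transcription and in splicing. The deleted exons, the driver of the deletion and the alleles that WT mice carry are not given in the sources used here, and the labels do not state whether the libraries come from separate animals. The errors and p-values below therefore measure the spread between libraries, part of which may be technical.

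Cyp2c enzymes are haem proteins of the endoplasmic reticulum that oxidise drugs and lipids with electrons passed on by cytochrome P450 reductase. In mouse liver several of them turn arachidonic and linoleic acid into epoxides or hydroxylated fatty acids, and one, Cyp2c70, hydroxylates bile acids to form the muricholic acids that are typical of mice. Their transcription depends on hepatocyte nuclear factors such as HNF4A, and several respond to the xenobiotic receptors CAR and PXR or differ between the sexes through the pattern of growth hormone secretion.

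Total estimated counts ran from 19142612 to 25120565 per library. Levels are given as TMM-scaled CPM, in which counts are divided by the effective size of their library. Arglu1 itself stood at 12.8 to 16.7 CPM in the 8 LKO libraries and at 39.5 to 45.1 CPM in the 8 WT libraries. Genotypes were separated on the first principal component of all genes (38.2% of the variance), and a further component (13.8%) set LKO chow replicates 3 and 4 apart from LKO chow replicates 1 and 2. That component also spread the WT libraries, from -28.3 (replicate 4) to 5.63 (replicate 2) in WT chow and from -6.87 to 25.1 in WT HFD. LKO chow replicates 3 and 4 stood at -38.1 and -34.7. Pairs of libraries were left out in LKO chow only. For many chow results below, values without LKO chow replicates 1 and 2 or without 3 and 4 are given as well.

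The 10 genes lie in one cluster on chromosome 19, between 39269405 and 40187333 (GRCm38, GENCODE M21), 4 on the plus strand and 6 on the minus strand. In order they are Cyp2c29, Cyp2c38, Cyp2c39, Cyp2c67, Cyp2c40, Cyp2c69, Cyp2c37, Cyp2c54, Cyp2c50 and Cyp2c70, with Cyp2c68, which is not among the 10, between Cyp2c67 and Cyp2c40. Their longest coding sequences were 66.7% to 97.9% identical over 45 pairs, and they fell into 3 close sets and 2 single genes. Cyp2c40, Cyp2c67 and Cyp2c69 shared 97.7% to 97.9% of their coding bases, with 31 differences between Cyp2c40 and Cyp2c69 and 34 between Cyp2c67 and either of them. Cyp2c37, Cyp2c50 and Cyp2c54 shared 95.1% to 96.1%, and Cyp2c38 and Cyp2c39 shared 94.2%. Cyp2c29 was closest to Cyp2c39 among the 10, at 89.5%, and Cyp2c70 was no closer than 70.3% to any Cyp2c gene of the mouse.

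This likeness bears on how far each value can be trusted, since reads that fit several genes must be divided between them. Of all 150-base windows, the read length, of the longest coding transcript with its untranslated ends, 29.1% in Cyp2c40, 22.5% in Cyp2c69 and 13.01% in Cyp2c67 also occurred letter for letter in another Cyp2c gene. The share was 3.25% in Cyp2c50, 2.99% in Cyp2c54 and 0.299% in Cyp2c37, and no window of Cyp2c29, Cyp2c38, Cyp2c39 or Cyp2c70 was shared. The deposited counts were whole numbers in all 16 libraries for Cyp2c70 and in 4 libraries for Cyp2c29, and in no library for the other 8 genes. The split of reads within a close set is thus uncertain, and the sum over each set is given with its members.

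The sequences just before the start sites show the same kinship, and those of the 6 members that passed the genotype test on either diet are printed to show where copies differ. They are the 250 bases upstream of the RefSeq start (GRCm38.p6), 5′ to 3′ on the strand of the gene. Capitals mark matches to CAAAGTNCA, a motif of HNF4, and to ATTGAT, a motif of HNF6 (Onecut), on either strand. They cover chr19:39812815-39813064 (minus) for Cyp2c40, chr19:39886770-39887019 (minus) for Cyp2c69, chr19:39649043-39649292 (minus) for Cyp2c67, chr19:39992174-39992423 (plus) for Cyp2c37, chr19:40089429-40089678 (plus) for Cyp2c50 and chr19:39286835-39287084 (plus) for Cyp2c29.
Cyp2c40: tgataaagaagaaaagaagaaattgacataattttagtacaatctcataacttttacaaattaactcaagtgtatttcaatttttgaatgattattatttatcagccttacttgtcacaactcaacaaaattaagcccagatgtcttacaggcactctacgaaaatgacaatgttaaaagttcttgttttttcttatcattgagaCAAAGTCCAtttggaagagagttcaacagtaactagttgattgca
Cyp2c69: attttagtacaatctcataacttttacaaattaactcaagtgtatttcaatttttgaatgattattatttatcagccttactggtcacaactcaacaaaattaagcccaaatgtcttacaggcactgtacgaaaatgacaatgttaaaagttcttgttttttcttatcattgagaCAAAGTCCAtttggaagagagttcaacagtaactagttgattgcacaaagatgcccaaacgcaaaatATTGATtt
Cyp2c67: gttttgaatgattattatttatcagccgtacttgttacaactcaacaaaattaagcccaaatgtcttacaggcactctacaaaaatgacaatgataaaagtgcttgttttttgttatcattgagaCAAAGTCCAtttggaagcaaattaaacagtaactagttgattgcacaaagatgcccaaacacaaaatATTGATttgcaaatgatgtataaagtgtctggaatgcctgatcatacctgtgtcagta
Cyp2c37: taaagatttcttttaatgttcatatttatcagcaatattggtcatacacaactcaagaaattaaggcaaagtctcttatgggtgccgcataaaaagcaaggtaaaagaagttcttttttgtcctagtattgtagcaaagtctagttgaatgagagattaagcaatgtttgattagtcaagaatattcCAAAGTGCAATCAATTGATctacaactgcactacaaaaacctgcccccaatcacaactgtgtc
Cyp2c50: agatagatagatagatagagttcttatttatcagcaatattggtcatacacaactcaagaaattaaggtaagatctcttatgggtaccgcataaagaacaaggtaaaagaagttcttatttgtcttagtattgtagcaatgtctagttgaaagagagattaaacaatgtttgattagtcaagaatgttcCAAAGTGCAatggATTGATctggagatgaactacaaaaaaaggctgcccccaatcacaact
Cyp2c29: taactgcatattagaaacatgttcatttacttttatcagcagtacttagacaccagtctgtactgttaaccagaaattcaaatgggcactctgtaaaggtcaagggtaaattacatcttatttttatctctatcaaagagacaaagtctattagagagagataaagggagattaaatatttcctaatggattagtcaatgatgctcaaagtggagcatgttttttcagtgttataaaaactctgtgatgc

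Between Cyp2c40 and Cyp2c69, 3 of 220 aligned upstream bases differed (98.6% identity). Cyp2c67 differed from Cyp2c40 at 12 of 170 aligned bases (92.9%) and from Cyp2c69 at 14 of 200 (93.0%), while Cyp2c37 and Cyp2c50 were 87.8% identical. An upstream sequence was at hand for 9 of the 10 members, Cyp2c54 being the one without. The HNF4 motif was found in 6 of these 9, namely Cyp2c37, Cyp2c40, Cyp2c50, Cyp2c67, Cyp2c69 and Cyp2c70, against 1.19% of 32851 windows of the same length before mouse genes. Its first base lay at -45 in Cyp2c40, -75 in Cyp2c69, -125 in Cyp2c67, -63 in Cyp2c37, -61 in Cyp2c50 and -64 in Cyp2c70, counted from the start site. These positions depend on where each start site is annotated. In Cyp2c40 and Cyp2c69 the motif stands at the same place of the aligned sequences. The window of Cyp2c29 lies wholly inside the gene as given by GENCODE, which runs from 39269405 to 39330713. Those of Cyp2c69, Cyp2c67 and Cyp2c70 overlap their GENCODE genes in part, which end at 39886799, 39649051 and 40187333. The shorter core CAAAGT, which the HNF4 motif contains, was found in all 9, against 12.6% of windows. ATTGAT was found in Cyp2c37, Cyp2c50, Cyp2c67 and Cyp2c69, against 6.72% of windows. In Cyp2c37 it occurred on both strands, with 2 matches that overlapped each other. The window of Cyp2c40 stops earlier in the aligned sequence than that of Cyp2c69, before the place of the ATTGAT of Cyp2c69. It therefore cannot show whether Cyp2c40 differs from Cyp2c69 there. The STAT5 motif TTCNNNGAA was in none of the 9 windows and in 7.02% of all. Since these genes are copies of one another, their matches are not separate observations, and a match is a description of letters only.

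The comparison of LKO with WT livers addressed how each Cyp2c transcript differed once hepatocytes lacked Arglu1. On both diets Cyp2c69, Cyp2c40, Cyp2c37 and Cyp2c50 fell. Cyp2c67 rose on chow and Cyp2c29 rose on HFD. Cyp2c38, Cyp2c39, Cyp2c54 and Cyp2c70 did not pass the test on either diet. On chow 5 of 10 members were called by edgeR at an adjusted p below 0.05, 4 lower and 1 higher, where 24.7% of all genes tested were called (11.8% lower and 12.9% higher). On HFD 5 of 10 were called, again 4 lower and 1 higher, where 17.9% of all genes were called (7.57% lower and 10.3% higher). The median log2 fold change of the 10 was -0.35 on chow, with 0.02 over all genes, and -0.22 on HFD, with -0.01 over all genes. In whole liver, fewer cells of a type and less RNA per cell cannot be told apart.

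**Figure D1:**
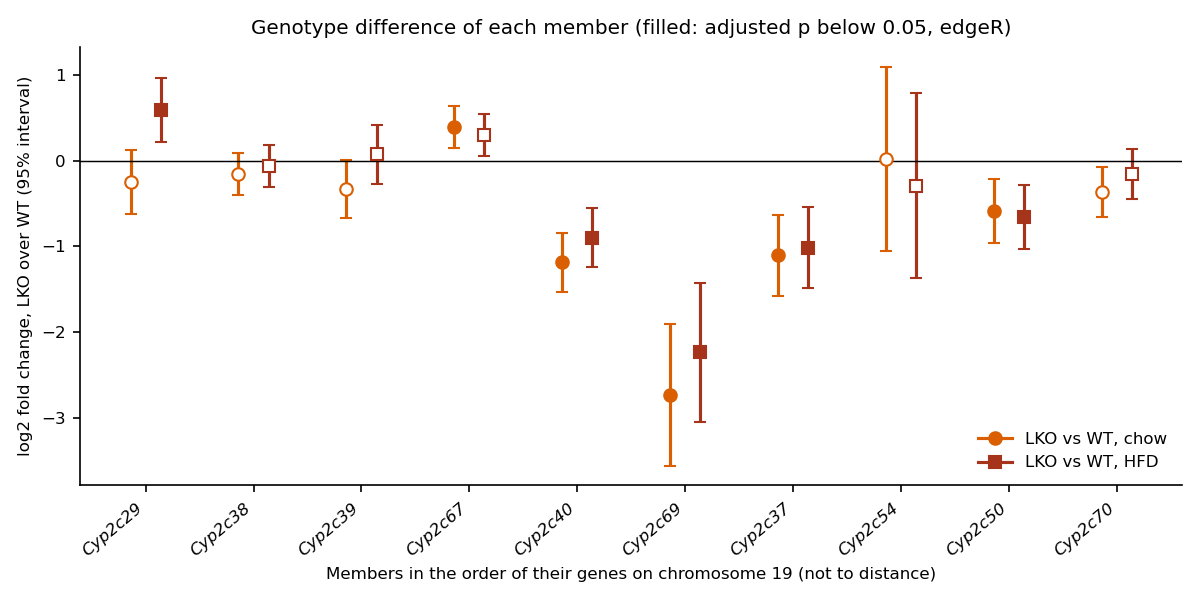
The log2 fold change of LKO over WT livers, on the vertical axis, is drawn for each member in the order of the genes on chromosome 19, with 95% intervals from edgeR fits of 4 libraries per group. Filled symbols passed an adjusted p of 0.05. Cyp2c69 lies lowest, at -2.73 on chow and -2.23 on HFD, next to Cyp2c40 at -1.18 and -0.90, while Cyp2c67 lies above 0 on both diets.

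Cyp2c69, normally more abundant in the liver of female than of male mice, showed the widest difference. It had 67.4, 199.5, 60.6 and 119 CPM in LKO chow livers, against 1092, 760, 581 and 532 CPM in WT chow livers. On HFD it had 49.7, 55.6, 88.8 and 103 CPM in LKO livers, against 435, 272, 322 and 369 CPM in WT livers. Every LKO library lay below every WT library on the same diet, and the highest LKO value, of LKO chow replicate 2, was still below the lowest WT value on either diet. The fitted log2 ratio of LKO to WT came to -2.73 for chow (SE 0.384, adjusted p = 0.000142, edgeR), a 6.63-fold lower level, and -2.23 with HFD (SE 0.378, adjusted p = 0.000798), a 4.70-fold lower level. On chow it was -3.05 without LKO chow replicates 1 and 2 (adjusted p = 0.000297) and -2.47 without LKO chow replicates 3 and 4 (adjusted p = 0.00544).

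Cyp2c40, an arachidonic acid hydroxylase that is also normally higher in females, stood at 243, 279, 195 and 322 CPM in LKO chow livers, against 577, 592, 633 and 557 CPM in WT chow livers. In LKO HFD livers it had 160.1, 185, 197 and 296 CPM, against 396, 406, 381 and 381 CPM in WT HFD livers. The genotypes did not overlap on either diet, and the WT HFD libraries were close together while LKO HFD replicate 4 stood above its group. Cyp2c40 fell by 1.18 on the log2 scale with chow (SE 0.163, adjusted p = 5.13e-05) and by 0.90 with HFD (SE 0.163, adjusted p = 0.000771, edgeR). The chow value was -1.19 without LKO chow replicates 1 and 2 and -1.18 without 3 and 4 (adjusted p = 0.00079 and 0.000336).

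Cyp2c67, the third gene of this near-identical set, moved the other way. It had 181, 239, 190.3 and 217 CPM in LKO chow livers, against 179, 131, 174 and 145 CPM in WT chow livers, and the groups did not overlap, although LKO chow replicate 1 and WT chow replicate 1 differed little. On HFD it had 183, 186, 171 and 207 CPM in LKO livers, against 134, 144, 173 and 155 CPM in WT livers, where LKO HFD replicate 3 fell below WT HFD replicate 3. The fitted log2 ratio of LKO to WT came to 0.39 for chow (SE 0.117, adjusted p = 0.0205) and 0.30 with HFD (SE 0.117, adjusted p = 0.0881, edgeR). The chow call was lost in 6 of 20 alternatives, with adjusted p = 0.0597 and 0.0510 without LKO chow replicate 2 or 4, 0.0685 and 0.0605 without WT chow replicate 2 or 4, 0.0556 without LKO chow replicates 3 and 4, and 0.0725 in a fit of the chow libraries by themselves. On HFD it was called in 2 of 18 alternatives, by limma voom (0.28, adjusted p = 0.0293) and in a fit of the HFD libraries by themselves (0.30, adjusted p = 0.0291).

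Non-overlap of the genotypes, seen in Cyp2c37, Cyp2c40, Cyp2c50, Cyp2c67 and Cyp2c69 on chow and in Cyp2c37, Cyp2c40 and Cyp2c69 on HFD, was found in 21.4% of all genes tested on chow and in 27.8% on HFD. Summed over Cyp2c40, Cyp2c67 and Cyp2c69, which does not depend on how reads were divided among the 3, the level was 578 ± 130 CPM in LKO chow livers and 1488 ± 261 CPM in WT chow livers (SD, n = 4 each), a ratio of 0.388. On HFD the sum was 471 ± 94.3 CPM in LKO livers and 892 ± 59.7 CPM in WT livers (SD, n = 4 each), a ratio of 0.527. Neither sum overlapped between the genotypes, and the chow ratio was 0.371 without LKO chow replicates 1 and 2 and 0.406 without 3 and 4. With Cyp2c68, which is 98.1% identical to Cyp2c40, added, the ratio of LKO to WT was 0.435 on chow and 0.540 on HFD. Cyp2c68 itself fell, at 269 ± 37.3 CPM in LKO chow livers and 457 ± 50.1 CPM in WT chow livers (log2 ratio -0.76, SE 0.119, adjusted p = 0.000156), and at 207 ± 31.4 CPM in LKO HFD livers and 362 ± 13.9 CPM in WT HFD livers (-0.81, SE 0.119, adjusted p = 0.000121; SD, n = 4 each). The set was thus lower in LKO as a whole, and Cyp2c67 was the one of its 4 genes with a higher estimate.

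**Figure D2:**
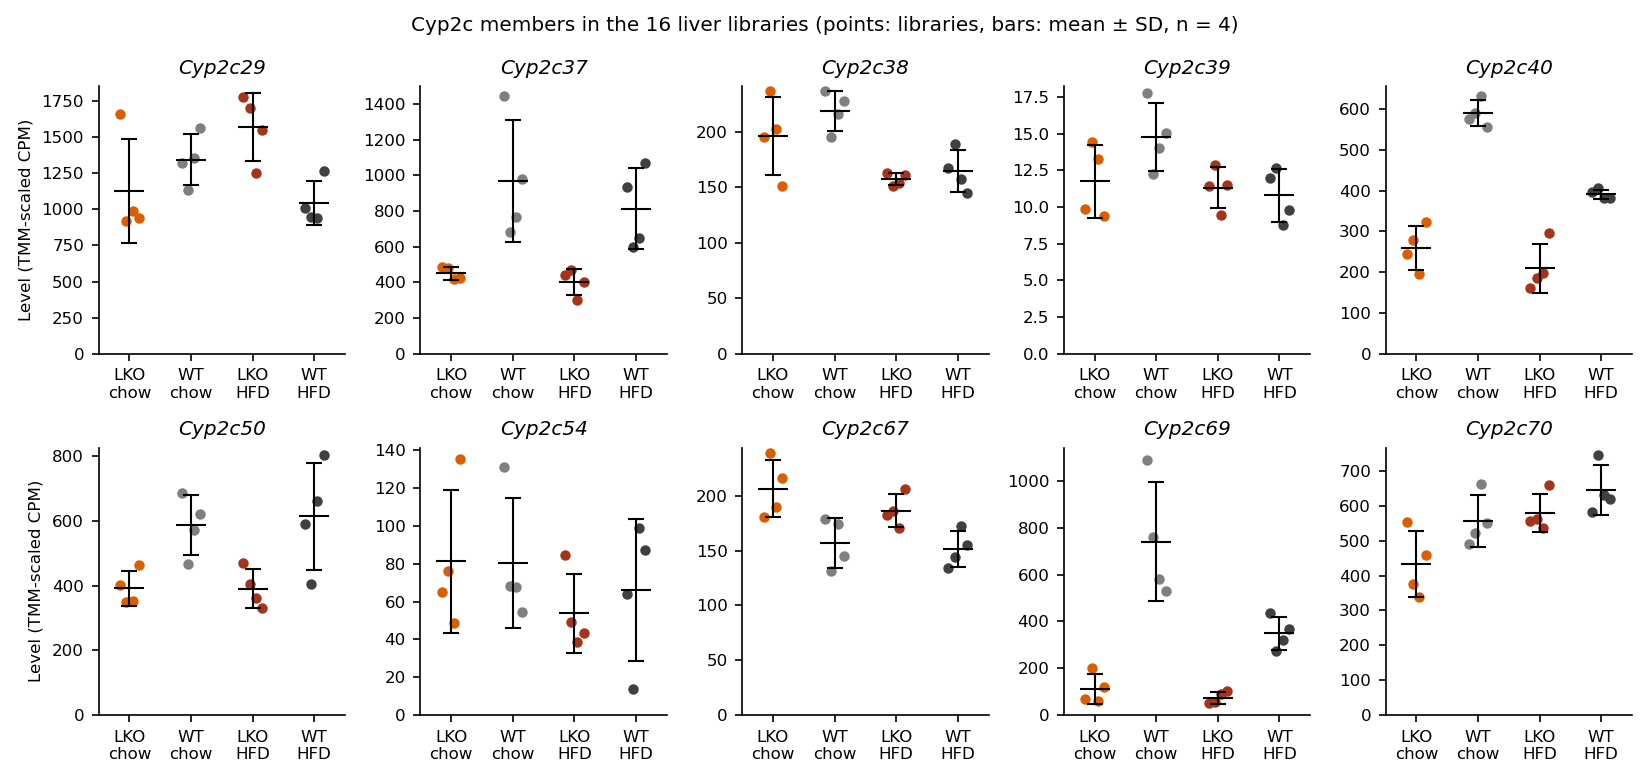
Levels of the 10 members in TMM-scaled CPM, 1 panel per gene and 1 point per library, with the mean and SD of each group of 4 as bars. Cyp2c69, Cyp2c40 and Cyp2c37 are lower in all LKO than in all WT libraries on the same diet, whereas Cyp2c54 spreads from 13.9 to 98.7 CPM within WT HFD alone.

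Cyp2c37 hydroxylates arachidonic acid and is induced by phenobarbital in mice. It had 485, 478, 416 and 423 CPM in LKO chow livers, against 1445, 682, 766 and 980.1 CPM in WT chow livers. On HFD it had 439, 467, 299 and 402 CPM in LKO livers, against 938, 598, 647 and 1069 CPM in WT livers. All LKO libraries were below all WT libraries on both diets, and on chow WT replicate 1 stood highest. Cyp2c37 fell by 1.10 on the log2 scale with chow (SE 0.224, adjusted p = 0.00184), a 2.15-fold lower level, and by 1.02 with HFD (SE 0.224, adjusted p = 0.00415, edgeR), a 2.02-fold lower level. The chow value was -1.21 without LKO chow replicates 1 and 2 and -1.01 without 3 and 4 (adjusted p = 0.00968 and 0.0413).

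Cyp2c50 and Cyp2c54 epoxidise arachidonic and linoleic acid. Cyp2c50 had 403, 349, 351 and 462 CPM in LKO chow livers, against 687, 465, 573 and 622 CPM in WT chow livers, and these groups were apart by a small gap between LKO chow replicate 4 and WT chow replicate 2. On HFD Cyp2c50 had 469, 403, 360.2 and 329 CPM in LKO livers, against 589, 404, 661 and 803 CPM in WT livers, where WT HFD replicate 2 lay within the LKO range. It fell by 0.58 on the log2 scale with chow (SE 0.177, adjusted p = 0.0223) and by 0.65 with HFD (SE 0.177, adjusted p = 0.0152, edgeR). The chow call was lost without LKO chow replicate 2 or 3 (adjusted p = 0.0533 and 0.0673), without WT chow replicate 1 or 4 (0.0675 and 0.0527) and without LKO chow replicates 1 and 2 or 3 and 4 together (0.0944 and 0.0665). The HFD call was lost without LKO HFD replicate 4 (0.0554) or WT HFD replicate 4 (0.0668).

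Cyp2c54 was the least certain of the set. It had 64.98, 76.3, 48.8 and 135 CPM in LKO chow livers, against 131, 68.4, 67.5 and 54.3 CPM in WT chow livers. In LKO HFD livers it had 84.6, 49.0, 38.9 and 43.1 CPM, against 63.9, 13.9, 98.7 and 87.0 CPM in WT HFD livers. The groups overlapped widely and single libraries lay far from the others, so that the fitted log2 difference was 0.02 on chow (95% interval -1.06 to 1.09, adjusted p = 0.987) and -0.29 on HFD (-1.37 to 0.79, adjusted p = 0.755, edgeR). The sum of Cyp2c37, Cyp2c50 and Cyp2c54 was 923 ± 86.2 CPM in LKO chow livers and 1635 ± 456 CPM in WT chow livers, and 846 ± 134 CPM in LKO HFD livers and 1493 ± 392 CPM in WT HFD livers (SD, n = 4 each). The ratio of LKO to WT was 0.564 on chow and 0.567 on HFD, without overlap on either diet. On chow it was 0.562 without LKO chow replicates 1 and 2 and 0.567 without 3 and 4.

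Cyp2c29 is an arachidonic acid epoxygenase of pericentral hepatocytes and a target of CAR in mice. It had 1666, 918, 993 and 939 CPM in LKO chow livers, against 1320.0, 1135, 1359 and 1567 CPM in WT chow livers. On HFD it had 1784, 1702, 1255 and 1549 CPM in LKO livers, against 1013, 951, 938 and 1266 CPM in WT livers. On chow 3 LKO libraries lay below all WT libraries and LKO chow replicate 1 lay above them all, whereas on HFD 3 LKO libraries lay above all WT libraries. The fitted log2 ratio of LKO to WT came to -0.25 for chow (SE 0.177, 95% interval -0.63 to 0.12, adjusted p = 0.333) and 0.59 with HFD (SE 0.178, adjusted p = 0.0265, edgeR). The chow value depended on the libraries used. It was called in 2 of 20 alternatives, at -0.50 without LKO chow replicate 1 (adjusted p = 0.0151) and -0.48 without LKO chow replicates 1 and 2 (adjusted p = 0.0283). With 1 library left out it ran from -0.50 to -0.17 (adjusted p up to 0.574, edgeR). In the other alternatives it ran from -0.48 to -0.06 (adjusted p up to 0.885). The HFD call was lost when any of 6 libraries was left out, LKO HFD replicate 1, 2 or 4 or WT HFD replicate 1, 2 or 3, with adjusted p = 0.0519 to 0.0838.

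The direct test of whether the genotype difference of Cyp2c29 differed between diets gave 0.85 on the log2 scale (SE 0.251, unadjusted p = 0.00352, adjusted p = 0.400, edgeR). It was called in 2 of 27 alternatives, at 1.10 without LKO chow replicate 1 (adjusted p = 0.0437) and 1.07 without LKO chow replicates 1 and 2 (adjusted p = 0.00682). With 1 library left out it ran from 0.76 to 1.10 (adjusted p up to 0.674, edgeR). In the other alternatives it ran from 0.65 to 1.07 (adjusted p up to 0.663). No member passed this test with all libraries, where 0.0208% of all genes did. At an unadjusted p below 0.05 it had 1 member, with 8.75% of all genes, and 0 members were called by DESeq2 (0.404% of all genes) or limma voom (0.111%).

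Cyp2c38 and Cyp2c39 are epoxygenases in mice, and Cyp2c39 also hydroxylates retinoic acid. Cyp2c38 averaged 196 ± 35.3 CPM in LKO chow livers and 219 ± 17.8 CPM in WT chow livers, and 157 ± 5.46 CPM in LKO HFD livers and 165 ± 18.8 CPM in WT HFD livers (SD, n = 4 each). Cyp2c39 was the scarcest member, at 11.7 ± 2.52 CPM in LKO chow livers and 14.8 ± 2.32 CPM in WT chow livers, and 11.3 ± 1.39 CPM in LKO HFD livers and 10.8 ± 1.82 CPM in WT HFD livers (SD, n = 4 each). Both overlapped between genotypes on both diets. The ratio of LKO to WT for their sum was 0.891 on chow and 0.962 on HFD, and on chow 0.804 without LKO chow replicates 1 and 2 and 0.977 without 3 and 4. For Cyp2c38 the log2 difference was -0.16 on chow (95% interval -0.40 to 0.09) and -0.06 on HFD (-0.31 to 0.18). For Cyp2c39 it was -0.33 on chow (-0.67 to 0.01) and 0.07 on HFD (-0.27 to 0.41), with adjusted p from 0.155 to 0.819 in these 4 tests (edgeR). All 4 intervals include 0, and that of Cyp2c39 on chow reaches down to -0.67.

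Cyp2c70, the enzyme that makes muricholic acids, had 553, 377, 339 and 460.3 CPM in LKO chow livers, against 492, 522, 662 and 551 CPM in WT chow livers. On HFD it had 557, 563, 536 and 659 CPM in LKO livers, against 582, 747, 630.5 and 620.3 CPM in WT livers. Again LKO chow replicate 1 stood above the rest of its group, inside the WT range, and the groups overlapped on both diets. The fitted log2 ratio of LKO to WT came to -0.36 for chow (SE 0.140, adjusted p = 0.0667) and -0.16 with HFD (SE 0.140, adjusted p = 0.495, edgeR). The chow difference was called by DESeq2 (-0.39, adjusted p = 0.0324), by limma voom (-0.40, adjusted p = 0.0371) and by edgeR without LKO chow replicate 1 (-0.51, adjusted p = 0.00984) or without LKO chow replicates 1 and 2 (-0.48, adjusted p = 0.0204). These were 4 of 20 alternatives, over which it ran from -0.51 to -0.26 (adjusted p up to 0.293).

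Of 9 other genes of bile acid synthesis, conjugation and transport, 1 rose and 4 fell on chow and 1 rose and 3 fell on HFD in LKO livers. Over all genes tested, 12.9% rose and 11.8% fell on chow, and 10.3% rose and 7.57% fell on HFD. The bile acid importer Slc10a1 fell by 0.93 on the log2 scale on chow (adjusted p = 6.91e-06) and by 0.69 on HFD (adjusted p = 0.000173). The exporter Abcb11 fell by 0.46 on chow (adjusted p = 0.00334, edgeR) and was also called lower on HFD. Cyp7b1, of the alternative synthesis pathway, rose by 0.86 on chow (adjusted p = 1.01e-05) and by 0.56 on HFD (adjusted p = 0.000699). Cyp8b1, which makes cholic acid and so directs bile acids away from the muricholic branch, averaged 56.4 ± 27.0 CPM in LKO HFD livers and 167 ± 43.1 CPM in WT HFD livers (SD, n = 4 each), a fall of 1.56 (adjusted p = 0.00335, edgeR). On chow 1 of the 9 rose and 4 fell without LKO chow replicates 1 and 2, and 1 rose and 2 fell without 3 and 4.

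Summed over the 10 members, the level was 3270.2 ± 440.4 CPM in LKO chow livers and 5259 ± 676 CPM in WT chow livers (SD, n = 4 each), a ratio of 0.622. The lowest and highest libraries were 2809 and 3868 CPM in LKO chow, against 4563 and 6176 CPM in WT chow, without overlap. The ratio was 0.575 without LKO chow replicates 1 and 2 and 0.669 without 3 and 4. On HFD the sum was 3637 ± 357 CPM in LKO livers and 4247 ± 500.4 CPM in WT livers (SD, n = 4 each), a ratio of 0.856, and the groups overlapped. Since Cyp2c29 is the largest part of the sum and stood higher in LKO than in WT livers on HFD, the sum on HFD combined its higher level with the lower levels of Cyp2c37, Cyp2c40, Cyp2c50 and Cyp2c69.

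**Figure D3:**
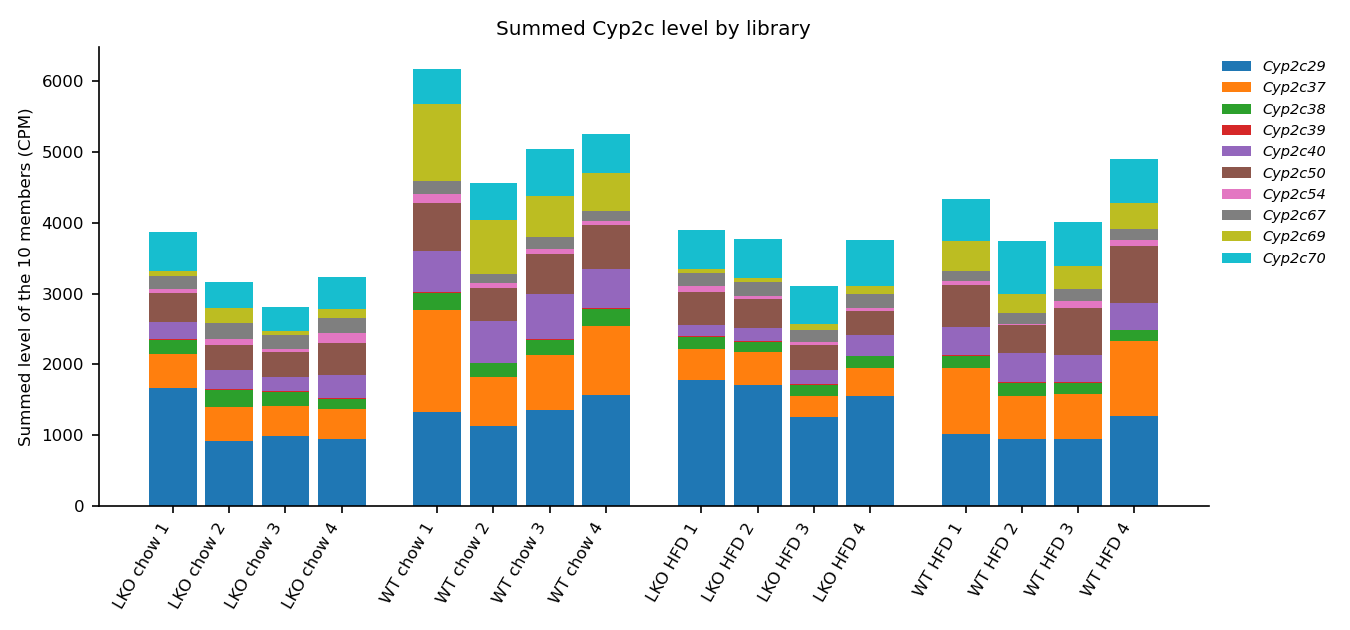
Summed CPM of the 10 members in each of the 16 libraries, on the vertical axis, stacked by gene. The 4 LKO chow bars reach 2809 to 3868 CPM and the 4 WT chow bars 4563 to 6176 CPM, and the segment of Cyp2c69 is narrow in every LKO library.

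Levels of different genes can be compared per kilobase, here of merged exons, although the order at the top depended on the length used. In LKO chow livers Cyp2c29 was highest, at 369 ± 117 CPM per kb, followed by Cyp2c37 at 247 ± 19.8 and Cyp2c70 at 218 ± 48.0, of which Cyp2c37 and Cyp2c70 overlapped. In WT chow livers Cyp2c37 (531 ± 187 CPM per kb), Cyp2c29 (439.5 ± 58.0) and Cyp2c69 (434 ± 148) led, and their ranges overlapped from neighbour to neighbour. In LKO HFD livers Cyp2c29 (514 ± 76.1 CPM per kb), Cyp2c70 (292 ± 27.8) and Cyp2c37 (220.3 ± 40.2) led with no overlap between neighbours. In WT HFD livers it was Cyp2c37 (446 ± 125 CPM per kb), Cyp2c29 (340.5 ± 49.9) and Cyp2c70 (326 ± 35.9), with overlap from neighbour to neighbour (SD, n = 4 each). With the length of the longest coding transcript, Cyp2c29 led in all 4 groups, at 633 ± 201 CPM per kb in LKO chow, 755 ± 99.5 in WT chow, 882 ± 131 in LKO HFD and 585 ± 85.7 in WT HFD livers (SD, n = 4 each). With that of the longest annotated transcript, Cyp2c37 led in both WT groups, and Cyp2c70 (376 ± 41.4 CPM per kb) came just before Cyp2c29 (369 ± 54.1) in WT HFD livers. With all 3 lengths Cyp2c69 was the third member in WT chow livers and the eighth in both LKO groups (the seventh in LKO chow without replicates 3 and 4, per merged exons), and Cyp2c39 was the last of the 10 in all 4 groups.

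As a share of the summed level per kilobase, Cyp2c69 made up 4.69 ± 2.67% in LKO chow livers and 17.9 ± 4.37% in WT chow livers, and 2.94 ± 1.13% in LKO HFD livers and 10.7 ± 1.55% in WT HFD livers (SD, n = 4 each). Cyp2c29 made up 26.1 ± 5.91% in LKO chow livers and 18.5 ± 3.01% in WT chow livers, and 34.0 ± 2.60% in LKO HFD livers and 17.8 ± 1.05% in WT HFD livers (SD, n = 4 each). Without LKO chow replicates 1 and 2 or 3 and 4, the LKO chow share was 3.95% or 5.42% for Cyp2c69 and 24.5% or 27.7% for Cyp2c29. Shares of one sum cannot move freely, so a lower share of Cyp2c69 raises that of the others.

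The diet comparison asked what 12 weeks of HFD did to the same genes within a genotype. No member was called in WT or in LKO livers (edgeR), where 2.04% of all genes were called in WT and 2.22% in LKO. At an unadjusted p below 0.05 there were 4 members in WT, with 15.4% of all genes, and 3 in LKO, with 17.6% of all genes. DESeq2 called 2 members in WT, Cyp2c38 and Cyp2c40, with 5.07% of all genes, and 0 in LKO, with 5.97%. Limma voom called 1 in WT, Cyp2c38, with 3.36% of all genes, and 2 in LKO, Cyp2c29 and Cyp2c70, with 14.2%. In WT livers 3 members did not overlap between diets, with 9.51% of all genes doing so. These were Cyp2c40, at 391 ± 11.9 CPM in WT HFD livers and 589.7 ± 32.1 CPM in WT chow livers (log2 difference -0.59, SE 0.162, adjusted p = 0.0673), Cyp2c69, at 349.6 ± 69.7 CPM in WT HFD livers and 741 ± 253 CPM in WT chow livers (-1.08, SE 0.364, adjusted p = 0.156), and Cyp2c38 (-0.41, SE 0.117, adjusted p = 0.0786; SD, n = 4 each). All 3 stood lower in every WT HFD library than in every WT chow library, short of the threshold. The sum of Cyp2c40, Cyp2c67 and Cyp2c69 had a ratio of HFD to chow of 0.599 in WT livers, and that of Cyp2c38 and Cyp2c39 had 0.751, both without overlap.

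In LKO livers all 10 members overlapped between diets, with 10.2% of all genes free of overlap. Cyp2c29 averaged 1573 ± 233 CPM in LKO HFD livers and 1129 ± 359 CPM in LKO chow livers, a log2 difference of 0.48 (SE 0.178, adjusted p = 0.165), and Cyp2c70 averaged 579 ± 55.0 CPM in LKO HFD livers and 432 ± 95.03 CPM in LKO chow livers, 0.42 (SE 0.140, adjusted p = 0.124, edgeR; SD, n = 4 each). Without LKO chow replicate 1 both passed, Cyp2c29 at 0.73 (adjusted p = 0.0120) and Cyp2c70 at 0.56 (adjusted p = 0.0302). Over 20 alternatives Cyp2c29 ran from 0.28 to 0.73 (adjusted p up to 0.608) and Cyp2c70 from 0.31 to 0.56 (adjusted p up to 0.424). The genotype and diet comparisons share libraries, so these are not separate from the genotype values above.

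Of 3 other Cyp2c genes tested, Cyp2c23 and Cyp2c55 rose and Cyp2c68 fell on each diet, with 24.7% of all genes called on chow and 17.9% on HFD. Cyp2c23, an epoxygenase that lies apart on chromosome 19 (chr19:44005022-44029208), averaged 347 ± 70.3 CPM in LKO chow livers and 223 ± 41.0 CPM in WT chow livers (SD, n = 4 each; log2 ratio 0.64, SE 0.1496, adjusted p = 0.00456). On HFD it averaged 298 ± 20.3 CPM in LKO livers and 164 ± 23.9 CPM in WT livers (0.86, SE 0.1502, adjusted p = 0.000552). Cyp2c55, which CAR and PXR induce in mice and which lies before Cyp2c65, Cyp2c66 and Cyp2c29 on chromosome 19, averaged 17.1 ± 6.98 CPM in LKO chow livers and 4.33 ± 2.51 CPM in WT chow livers (1.98, SE 0.400, adjusted p = 0.00226), and 14.7 ± 0.442 CPM in LKO HFD livers and 4.64 ± 1.80 CPM in WT HFD livers (1.67, SE 0.395, adjusted p = 0.00822, edgeR; SD, n = 4 each). Without LKO chow replicates 3 and 4, Cyp2c23 was not called on chow. The pseudogene Cyp2c52-ps reached at most 0.531 CPM in any library and was not tested.

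Among 4 electron donors of cytochromes P450, with 24.7% of all genes called on chow and 17.9% on HFD, 1 fell on chow and none was called on HFD. It was Cyb5b, a cytochrome b5, at -0.53 on the log2 scale (adjusted p = 0.0129), while Por, the reductase that supplies all Cyp2c enzymes, stood at 236 ± 36.4 CPM in LKO chow livers and 303 ± 66.6 CPM in WT chow livers (SD, n = 4 each; adjusted p = 0.126). Of 5 tested genes that make or break fatty acid epoxides, Ephx1, the microsomal epoxide hydrolase, rose by 0.70 on chow (adjusted p = 0.00118) and by 0.83 on HFD (adjusted p = 0.000332). Cyp2j5, another epoxygenase, fell by 0.36 on chow (adjusted p = 0.0116, edgeR), and on HFD its log2 difference was -0.013 (adjusted p = 0.949). Neither Cyb5b nor Cyp2j5 was called on chow without LKO chow replicates 3 and 4. Ephx2, the soluble hydrolase that acts on most fatty acid epoxides and was named after its values were seen, differed by 0.02 on chow (adjusted p = 0.879) and by 0.03 on HFD (adjusted p = 0.872).

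Of 20 regulators known to act on Cyp2c genes, 3 rose and 4 fell on chow, and 2 rose and 1 fell on HFD. The share of all genes called was 24.7% on chow and 17.9% on HFD. Nr1i2, which encodes PXR, averaged 44.1 ± 1.49 CPM in LKO chow livers and 69.5 ± 5.89 CPM in WT chow livers (SD, n = 4 each; log2 ratio -0.66, adjusted p = 1.49e-05), and fell by 0.62 on HFD (adjusted p = 3.84e-05). Hnf4a, named after its values were seen because its motif lies before 6 members, averaged 539.7 ± 57.7 CPM in LKO chow livers and 648 ± 33.7 CPM in WT chow livers (SD, n = 4 each; -0.26, adjusted p = 0.0417), and on HFD the log2 difference was 0.04 (adjusted p = 0.801). Nfe2l2, the oxidative stress factor NRF2, rose by 0.62 on chow (adjusted p = 0.000138) and by 0.49 on HFD (adjusted p = 0.00136), and Foxa3, a hepatocyte forkhead factor, rose by 0.82 on chow (adjusted p = 0.00353, edgeR), and on HFD its log2 difference was 0.26 (adjusted p = 0.363). On chow 3 regulators rose and 7 fell without LKO chow replicates 1 and 2, and 2 rose and 2 fell without 3 and 4, where Hnf4a was not called.

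Targets of CAR and PXR outside the family moved in both directions, 2 rising and 3 falling of 13 on each diet. Of all genes 24.7% were called on chow and 17.9% on HFD. Cyp2b10, the classical CAR target, averaged 65.3 ± 22.1 CPM in LKO chow livers and 25.3 ± 8.39 CPM in WT chow livers (SD, n = 4 each; log2 ratio 1.37, adjusted p = 0.00247), and on HFD it rose by 3.47 (adjusted p = 2.45e-06). Between diets, Cyp2b10 was called lower on HFD than on chow in WT livers and was not called in LKO livers (edgeR). The carboxylesterase Ces2a fell by 1.08 on chow (adjusted p = 7.45e-06) and by 1.13 on HFD (adjusted p = 5.98e-06, edgeR). On chow 3 rose and 2 fell without either pair of LKO chow libraries. Cyp2c29 and Cyp2c55 share CAR as a regulator with Cyp2b10. Cyp2c55 rose on both diets, as Cyp2b10 did, and Cyp2c29 rose on HFD and was not called on chow. Cyp2c37, which phenobarbital induces, fell on both diets. A part of CAR in these values was not tested.

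Of 13 genes of growth hormone signalling and of the switch between male and female liver, none rose, 5 fell on chow and 2 fell on HFD. Among all genes tested, 11.8% fell on chow and 7.57% on HFD, and 12.9% and 10.3% rose. Cux2, a repressor normally found in female liver, averaged 18.7 ± 2.75 CPM in LKO chow livers and 71.3 ± 12.3 CPM in WT chow livers (SD, n = 4 each; log2 ratio -1.92, adjusted p = 0.000217), and fell by 1.19 on HFD (adjusted p = 0.00886). Ghr, the growth hormone receptor, fell by 0.61 on chow (adjusted p = 0.00028) and by 0.45 on HFD (adjusted p = 0.00462, edgeR). On chow 7 fell without LKO chow replicates 1 and 2 and 3 without 3 and 4. Cyp2c40 and Cyp2c69, described above as normally higher in females, also fell. A part of these growth hormone genes in that fall was not tested, and sex bias was not examined for the other members.

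Position in the liver lobule and other cell types were followed through marker lists. Beside their counts, 12.9% of all genes tested rose and 11.8% fell on chow, and 10.3% rose and 7.57% fell on HFD. Of 14 pericentral genes 5 rose and none fell on chow, and 2 rose and 2 fell on HFD. Those that fell on HFD were Glul, glutamine synthetase, at -0.58 on the log2 scale (adjusted p = 0.00342), and Lgr5, a receptor in Wnt signalling, at -1.09 (adjusted p = 0.000298, edgeR). Of 12 periportal genes 2 rose and 4 fell on chow, and 4 rose and none fell on HFD. On chow 5 pericentral genes rose without LKO chow replicates 1 and 2, and 2 rose and 1 fell without 3 and 4, while 2 periportal genes rose and 3 fell in both cases. Of 6 hepatocyte markers 3 fell on chow, and 1 rose and 2 fell on HFD. Their summed level was 109810.3 to 121688 CPM in LKO chow livers and 89586 to 117930 CPM in WT chow livers, and 80771 to 96114 CPM in LKO HFD livers and 63188 to 68759 CPM in WT HFD livers. No tested marker of Kupffer, endothelial, stellate, bile duct, B, T and NK cells or neutrophils was called in either genotype comparison, and of 4 red cell markers 1 rose on each diet. Of 2 tested intestine markers 2 rose on chow and 1 on HFD, with Cdx2 at 0, and Prss1 of pancreas was at 0. The part of these shifts in the Cyp2c values was not tested.

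Across all 16 libraries the levels of the members followed one another unevenly. Cyp2c40 and Cyp2c69 had a Pearson r of 0.95 in log2 CPM, and 0.62 once the mean of each group was removed, while Cyp2c67 had an r of -0.53 with Cyp2c69 and -0.49 with Cyp2c40, and 0.46 and 0.41 within groups. Cyp2c67 and Cyp2c68 had -0.41 over all libraries and 0.77 within groups. Cyp2c37 and Cyp2c50 had 0.86 over all libraries and 0.64 within groups, Cyp2c50 and Cyp2c54 had 0.49 and 0.84, and Cyp2c38 and Cyp2c39 had 0.80 and 0.76. These values share libraries and, in the close sets, reads, and are given as description.

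**Figure D4:**
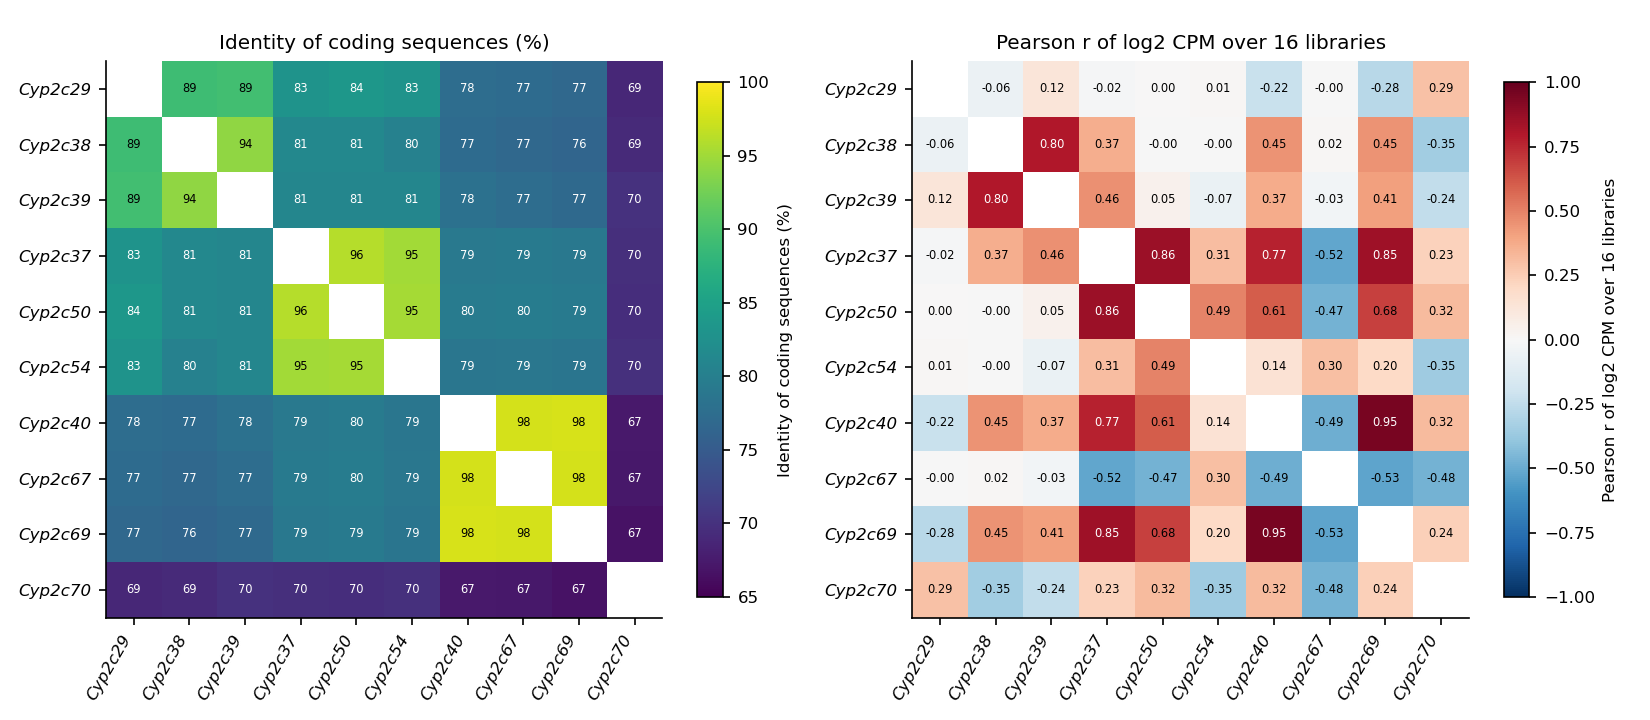
Left, identity of the coding sequences of each pair of members in percent, and right, Pearson r of their log2 CPM over the 16 libraries. The 3 close sets stand out as bright blocks on the left. On the right, Cyp2c40 and Cyp2c69 have an r of 0.95, whereas Cyp2c67 of the same set is negative with both.

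Outside the family, the genes whose log2 CPM followed each member most closely over the 16 libraries, among 12752 genes with a mean of at least 1 CPM, were these. For Cyp2c69 it was Sult3a1, a sulfotransferase (r = 0.97, and 0.70 within groups), which was also first for Cyp2c40 (0.93, and 0.39 within groups), followed there by Cyp3a44, another cytochrome P450 (0.93, and 0.44). For Cyp2c37 it was Ndrg2 (0.95, and 0.95 within groups), for Cyp2c50 Bend7 (0.90, and 0.76), for Cyp2c67 Egln3, a prolyl hydroxylase (0.89, and 0.79), and for Cyp2c54 Aqp9, a glycerol channel (0.83, and 0.81). For Cyp2c29 it was Akr1c14, an aldo-keto reductase (0.84, and 0.77), for Cyp2c38 Or52n2b (0.88, and 0.78), for Cyp2c39 Dmrta1 (0.81, and 0.72) and for Cyp2c70 Morc4 (0.85, and 0.60). The likeness of Cyp2c40 to its leading genes thus lay mostly in the difference between groups, while that of Cyp2c37 to Ndrg2 was as close within groups.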

How the data were processed

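Poly(A) RNA was sequenced as paired 150-base reads, per the labels' protocols. The values are estimated counts, not normalised, in the form the authors deposited, with 1 row per gene symbol. Whole numbers made up 51.1% of them (tolerance 1e-06). Their processing notes name mm10, Bowtie2 and DESeq2 without roles. The counting tool, its treatment of reads that fit several genes and the annotation are not given in the sources used here. A second deposited table held the same counts once its chow columns were moved up by 1 row, and no member value differed, so all members come from the first.

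Counts were rounded and tested with edgeR 4.0.16 (R 4.3.3): TMM scaling, filterByExpr, robust quasi-likelihood fits with 1 mean per group over all 16 libraries, 2-sided tests and Benjamini-Hochberg adjustment over 14434 genes at 0.05. Intervals are 95%. Alternatives were DESeq2 1.42.0, limma 3.58.1 (voom with quality weights), other scalings, filters and lengths, fits of the compared groups alone, a replicate block and leaving out libraries (for sums and gene lists, chosen after seeing the data). The code was tested on simulated data. Same-numbered libraries are not paired by the labels, and 5 of 24 of their correlations exceeded 0.1 (median -0.018), so no block entered the main fits.

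The members and gene lists were chosen with earlier results of these data known. Named genes were all members and other Cyp2c genes, up to 3 of lowest p per list in each genotype comparison, and the genes closest to each member in Pearson r of log2 CPM (prior count 2). Coordinates and coding sequences came from GENCODE M21 (GRCm38) and upstream sequences from RefSeq (GRCm38.p6). Precision is limited by 4 libraries per group at 19142612 to 25120565 counts each.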

Additional observations from a re-analysis of the deposited data

Results flagged for a closer look

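Of 64 sets of 4 libraries examined for one value far from the other 3, 2 stood out, where chance marks about 1 in 20. Cyp2c29 was at 1666 CPM in LKO chow replicate 1, against 918 to 993 CPM in the other 3 LKO chow libraries. The gap made up 0.901 of the range of the group, above Dixon's critical value. The sum of the 10 members and Cyp2c68 was 3292 CPM in LKO HFD replicate 3, against 3979 to 4090 CPM in the other 3 LKO HFD libraries (0.860 of the range).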

How the results depend on the processing

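Cyp2c37, Cyp2c40 and Cyp2c69 were called lower in LKO in all 20 alternatives run on chow and all 18 on HFD. Leaving out 1 library gave 3 to 7 called members on chow (3 without LKO chow replicate 2 or WT chow replicate 4, 7 without LKO chow replicate 1), 3 to 5 on HFD (3 without LKO HFD replicate 4), 0 to 2 for diet in LKO and 0 to 1 for the interaction (2 and 1 without LKO chow replicate 1). Without LKO chow replicates 3 and 4, 3 members and 2373 genes were called on chow (2152 genes when the chow libraries were fitted alone, 3565 in the main fit). Without LKO chow replicates 1 and 2, the counts were 2 members and 2768 genes for diet in LKO, and 1 member and 1264 genes for the interaction. For diet in LKO 179 genes were called without replicates 3 and 4, 188 with those groups alone, 779 by DESeq2 and 2053 (2 members) by limma voom, and 111 to 656 with 1 library left out. For diet in WT there were 706 genes (2 members) by DESeq2, 485 (1 member) by limma voom, 1 member with those groups alone, and 155 to 322 genes with 1 library left out. On HFD limma voom called 4519 genes. The interaction had 48 genes by DESeq2, 16 by limma voom, 0 at a mean count of at least 50 and 0 to 9 with 1 library left out, against 3. The cause of these shifts was not tested.

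With the replicate block, which the labels do not justify as a pairing, 5 members were called on each diet and 0 in the other comparisons, 0 genes were called for the interaction, and the diet difference of Cyp2c50 in LKO was 0.0128. It changed no other direction or call.

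Directions turned round in members near 0 that were not called. Cyp2c54 on chow was -0.0058 by DESeq2, -0.0052 by limma voom, -0.0028 with DESeq2 size factors, -0.19 without LKO chow replicates 3 and 4, and -0.34 to 0.36 with 1 library left out. For diet in LKO, Cyp2c39 was 0.0085 by limma voom (-0.149 to 0.0622 with 1 library left out), and Cyp2c50 was 0.0040 by DESeq2, 0.0020 with DESeq2 size factors and 0.0551 without LKO chow replicates 3 and 4 (-0.102 to 0.0875). With 1 library left out, Cyp2c38 ran from -0.121 to 0.0086 and Cyp2c39 from -0.0179 to 0.155 for genotype on HFD. For diet in WT, Cyp2c37 ran from -0.412 to 0.0062, Cyp2c50 from -0.0890 to 0.222, Cyp2c54 from -0.547 to 0.0579 and Cyp2c67 from -0.141 to 0.0142. For the interaction, Cyp2c37 ran from -0.171 to 0.248, Cyp2c38 from -0.0153 to 0.196, Cyp2c50 from -0.224 to 0.0867 and Cyp2c54 from -0.653 to 0.0493, and without LKO chow replicates 3 and 4 Cyp2c37 was at -0.0089 and Cyp2c38 at -0.0467. With the length of the longest coding transcript, the share of Cyp2c29 was 34.8% in LKO chow, 25.9% in WT chow, 43.6% in LKO HFD and 24.7% in WT HFD livers.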
